A study of Homo sapiens with 4 samples.

Results

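The genes described here are 34 annotated long noncoding RNA genes transcribed in Karpas 299, an established human cell line from an anaplastic large cell lymphoma that carries an ALK fusion. They were chosen by symbol and level. The symbol starts with LINC or SNHG, is GAS5 or MIR155HG, or ends in -AS1, -AS2 or -IT1, and the gene has at least 300 counted bases on its own strand and at least 0.5 RPKM in at least 1 of 4 libraries. RPKM, the deposited unit, is a read count scaled by the counted length of the gene and by the reads of the library, so that levels can be set side by side between genes. Of 22984 genes listed on their own strand among 44807 listed features, 158 had such a symbol, and 34 of these passed. The members are 17 LINC genes, 13 small nucleolar RNA (snoRNA) host genes (12 SNHG genes and GAS5) and 4 intronic transcripts with the ending -IT1. No listed symbol ended in -AS1 or -AS2, so 0 antisense members were found. The deposited RPKM values chose the members, so their levels are given as a description.

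Nascent RNA was measured by Bru-seq: bromouridine is built into RNA during a short pulse, and the labelled RNA is pulled down with an antibody and sequenced. Cells received either SM-164, a Smac mimetic and antagonist of inhibitor of apoptosis proteins, or DMSO as the control. In the other experiment, cells were placed on Chinese hamster ovary (CHO) cells expressing CD30L, which binds the receptor CD30, or on CHO cells not expressing it, and were collected by pipetting. Every treatment lasted 3 h, the label was present for the last 30 min, and each of the 4 conditions has 1 library of 1 cell line, so no difference has a replicate check and no p-value was computed. The libraries held 26217590 reads for SM-164, 31030478 for DMSO, 45535366 for CD30L+ CHO and 45885631 for CHO, of which the 34 genes took 0.0468%, 0.0462%, 0.0437% and 0.0505%. Of 8 genes listed as markers of this lymphoma, 6 reached 0.5 RPKM in a library, and ALK itself stayed at or under 0.137 RPKM. That value is a mean over 728838 counted bases of ALK, so the level of a transcribed part, such as that in a fusion, cannot be read from it. Of 8 B cell and myeloid markers, 2 reached it (CSF1R at up to 0.752 and LYZ at up to 0.600 RPKM), and MS4A1 was listed at 0 in all libraries. Fewer cells and less RNA per cell cannot be told apart in such bulk libraries.

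Long noncoding RNAs are transcribed, and often spliced and polyadenylated, like messenger RNAs but have no long reading frame. In a snoRNA host gene the functional product often lies in the introns: the snoRNAs are cut from the spliced-out introns and guide chemical modification of ribosomal RNA, while the spliced exons are quickly degraded in many cases. Many snoRNA hosts, coding and noncoding, start at a pyrimidine tract (a 5′ terminal oligopyrimidine, or 5′TOP, start), a feature shared with ribosomal protein genes and tied to growth and translation. LINC symbols are placeholders for intergenic transcripts, and -IT1 marks a transcript drawn inside an intron of the gene it is named after.

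The start sites of the snoRNA hosts are shown because most of these genes lay on the same side of 0 in 1 of the comparisons. RefSeq promoters (GRCh38.p14, 250 bases before to 50 after the start) were found for 27 of the 34 genes, 24 of them with 1 entry. A run of at least 5 C or T, read on the gene's own strand and lying between 10 bases before and 15 after the start, was found in 8 of 11 snoRNA host promoters (10 of the 13 hosts, and LINC00338, which RefSeq names SNHG20). The same run was found in 43.4% of all 35116 promoters. Below are the 25 bases on each side of the RefSeq start, in GRCh38.p14, for all hosts with a run but SNHG11, and for GAS5. The GAS5 window had no such run. Whether the RefSeq starts are those of the genes counted in hg19 was not checked, so the windows say nothing about other starts of these genes. The longest run between 10 bases before and 15 after the start is in capitals. Shorter runs, and bases outside these bounds, are left in lower case. The SNHG7 run begins before the first bound, so it is marked only in part.
SNHG1 (chr11:62855861-62855910, minus strand): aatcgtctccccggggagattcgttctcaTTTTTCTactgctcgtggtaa
SNHG3 (chr1:28505918-28505967, plus strand): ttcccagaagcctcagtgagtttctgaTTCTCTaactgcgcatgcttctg
SNHG4 (chr5:139274076-139274125, plus strand): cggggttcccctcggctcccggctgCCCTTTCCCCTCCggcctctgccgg
SNHG5 (chr6:85678709-85678758, minus strand): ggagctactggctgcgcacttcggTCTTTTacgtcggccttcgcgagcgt
SNHG7 (chr9:136728160-136728209, minus strand): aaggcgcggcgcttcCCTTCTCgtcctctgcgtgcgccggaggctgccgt
SNHG8 (chr4:118278737-118278786, plus strand): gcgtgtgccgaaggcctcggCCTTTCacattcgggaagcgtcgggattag
SNHG12 (chr1:28581849-28581898, minus strand): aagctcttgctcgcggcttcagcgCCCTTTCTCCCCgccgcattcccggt
GAS5 (chr1:173869021-173869070, minus strand): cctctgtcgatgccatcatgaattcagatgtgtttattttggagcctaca

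Other motifs were searched on both strands of the 300 bases. The AP-1 motif TGANTCA was found in the promoters of 3 of 27 members, LINC00152, LINC00339 and LINC00346, against 7.71% of all promoters. The E-box CACGTG was found in 4 of 27, LINC00426, LINC00471, LINC00493 and SNHG7, against 7.26%. A kappaB motif, the site of NF-kB dimers, was found in 1 of 27, SNHG4, against 5.91%. For SNHG15, SNHG6 and SNHG9 no promoter was matched, so none of these motifs was searched for there. These are matches of letters and say nothing about binding. LINC00152 (named CYTOR in RefSeq) is shown because its promoter holds TGAGTCA at 2 places, in capitals, which start 19 and 9 bases before the start site in GRCh38.p14.
LINC00152 (chr2:87455177-87455476, plus strand): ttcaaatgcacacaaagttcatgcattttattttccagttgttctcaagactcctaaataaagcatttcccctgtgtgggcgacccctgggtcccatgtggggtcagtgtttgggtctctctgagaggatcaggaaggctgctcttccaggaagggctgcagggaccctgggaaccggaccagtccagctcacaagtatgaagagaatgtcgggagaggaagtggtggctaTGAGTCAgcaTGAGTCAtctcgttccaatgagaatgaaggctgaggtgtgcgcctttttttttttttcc

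The highest level of each of the 34 genes over the libraries spanned 0.528 to 24.2 RPKM, and 6 of them reached 10 RPKM in a library. All 6 but LINC00152 are snoRNA hosts: SNHG1, SNHG15, SNHG3, GAS5 and SNHG5. Of the 34 genes, 29 were at 0.5 RPKM or more in all 4 libraries. LINC00515 was so in 3 libraries, LINC00092, LINC00176 and SNHG9 in 2, and LINC00094 only in CHO, at 0.528 RPKM, which put it just inside the rule. Just outside lay LINC00263 with a highest value of 0.414 RPKM, LINC00299 with 0.403, LINC00116 with 0.338, LINC00265 with 0.301 and LINC00461 with 0.279. Of the 124 genes with a fitting symbol that were not members, 6 had too few counted bases, 35 were listed at 0 in every library and 83 lay above 0 but under the threshold. MIR155HG, the host of miR-155 and a known NF-kB target in B cells, was among the 83. It had 0 reads with SM-164, 3 with DMSO, 1 with CD30L+ CHO and 0 with CHO over 12959 bases.

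**Figure D1:**
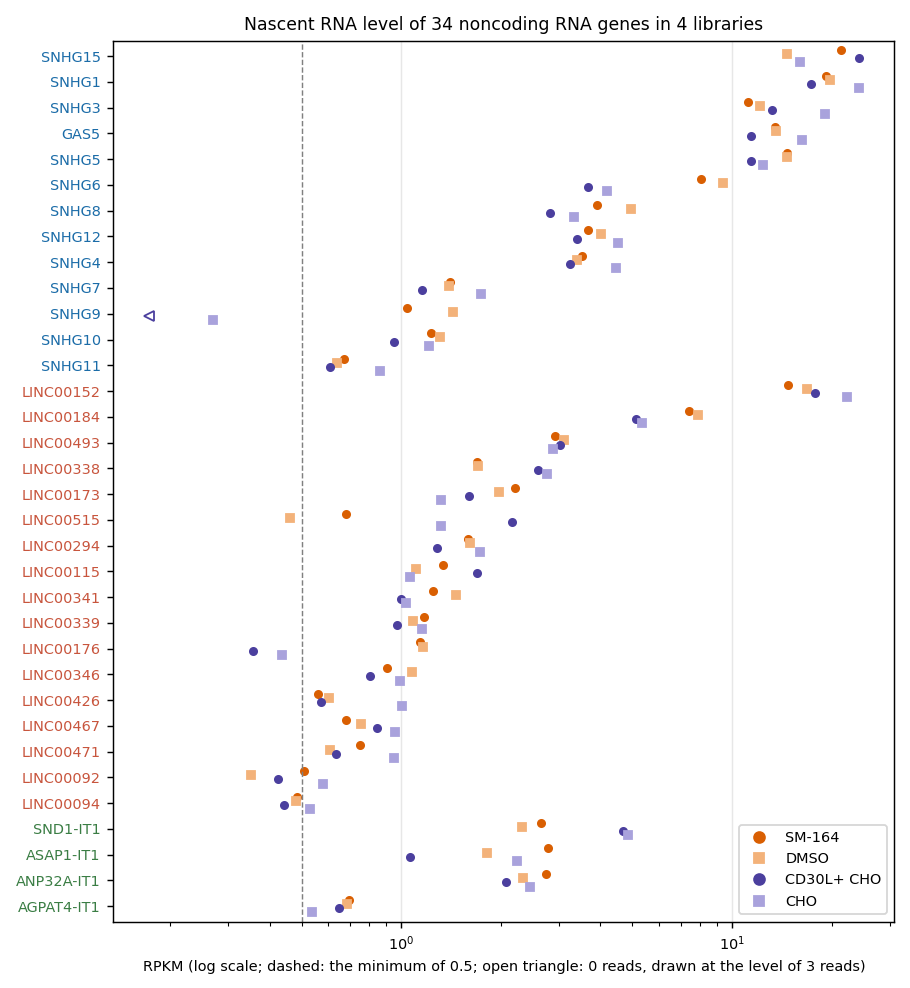
RPKM of the 34 genes (rows) in each of the 4 libraries, 1 point per library, on a log axis, grouped into snoRNA hosts, LINC genes and intronic transcripts. SNHG1 and SNHG15 reach 24.2 RPKM, and the open triangle marks SNHG9 with CD30L+ CHO, which had 0 reads, at the 0.172 RPKM that 3 reads would give.

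The symbols come from an older annotation. RefSeq still names 27 of the 34 under the same symbol, and 30 are noncoding there. The other 4 match protein-coding genes there: LINC00341 matches SYNE3, LINC00493 SMIM26, LINC00176 C20orf204 and LINC00094 BRD3OS. The match was by current or older symbol and not by position, so the counted bases need not cover the RefSeq gene. C14orf49, listed apart, ends 7403 bases upstream of LINC00341 on the same strand. With SM-164 its ratio was 1.45 (1.34 to 1.57), where LINC00341 had 0.851 (0.644 to 1.12). On CD30L+ CHO cells both intervals held 1. LINC00493 was close to level over the libraries, with 2.92 RPKM with SM-164, 3.10 with DMSO, 3.02 with CD30L+ CHO and 2.88 with CHO. Antisense reads were few at most of the genes: over the 4 libraries they made up under 1% of the reads of both strands at 19 genes and at least 10% at 7. They made up 48.2% at LINC00346, 41.8% at LINC00092 and 35.9% at LINC00294, so these loci carried reads on both strands.

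For the comparisons, the log2 ratio was taken of RPKM + 0.25, which shrinks the differences of genes with low values, and a gene was tested when its mean over the 2 libraries was at least 0.5 RPKM. Counts of genes at 2-fold or 1.5-fold use this log2 ratio. The ratios printed for single genes have no added constant, so they lie further from 1 and can pass a fold that the log2 ratio does not. They are ratios of reads per library total with an exact 95% interval. With 1 library per condition, these intervals reflect counting error alone. They may be too narrow even for that, because reads amplified by PCR without molecular identifiers do not each stand for a molecule. With SM-164, 0 of 32 tested members were 2-fold or more higher than with DMSO, and 0 were 2-fold or more lower. Over all 7881 tested genes the background was 0.19% higher and 0.0634% lower. At 1.5-fold on the log2 scale, the counts over the members were again 0 and 0, against 0.787% higher and 1.12% lower over all genes. Without the added constant, the ratios of LINC00515 (1.58, interval 0.480 to 5.52) and ASAP1-IT1 (1.54, 1.11 to 2.16) were above 1.5. The members' median log2 ratio was -0.019, beside -0.04 over all genes, with 13 members above 0 (background 36.7%) and 19 below (background 63.3%). By counting error alone, SNHG15 and ASAP1-IT1 were higher (background 15.7%), LINC00467 and SNHG6 were lower (background 29.4%), and the intervals of the other 28 held 1.

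On CD30L+ CHO cells, 0 of 31 tested members were 2-fold or more higher than on CHO cells, and 0 were 2-fold or more lower, on the log2 scale, against 0.979% and 0.731% of 7661 tested genes. At 1.5-fold on that scale, LINC00515 was higher (background 2.62%), with a counting interval that held 1, and LINC00426 and ASAP1-IT1 were lower (background 4.99%). Without the added constant, ASAP1-IT1 had a ratio of 0.475, past 2-fold, and SNHG15 (1.505), LINC00115 (1.61) and SNHG7 (0.662) were past 1.5-fold as well. The members' median log2 ratio was -0.22, beside -0.12 over all genes, and 25 of 31 lay below 0 (background 72%) and 6 above (background 28%). The interval lay below 1 for 17 members (background 55.7%) and above 1 for LINC00115 and SNHG15 (background 18.3%). TMM scaling raised every log2 ratio of this comparison by 0.21, and that of SM-164 against DMSO by 0.04. The tested members were short, with a median of 2841 counted bases beside 27212 over all tested genes. With the trend over gene length subtracted, their median was -0.011.

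**Figure D2:**
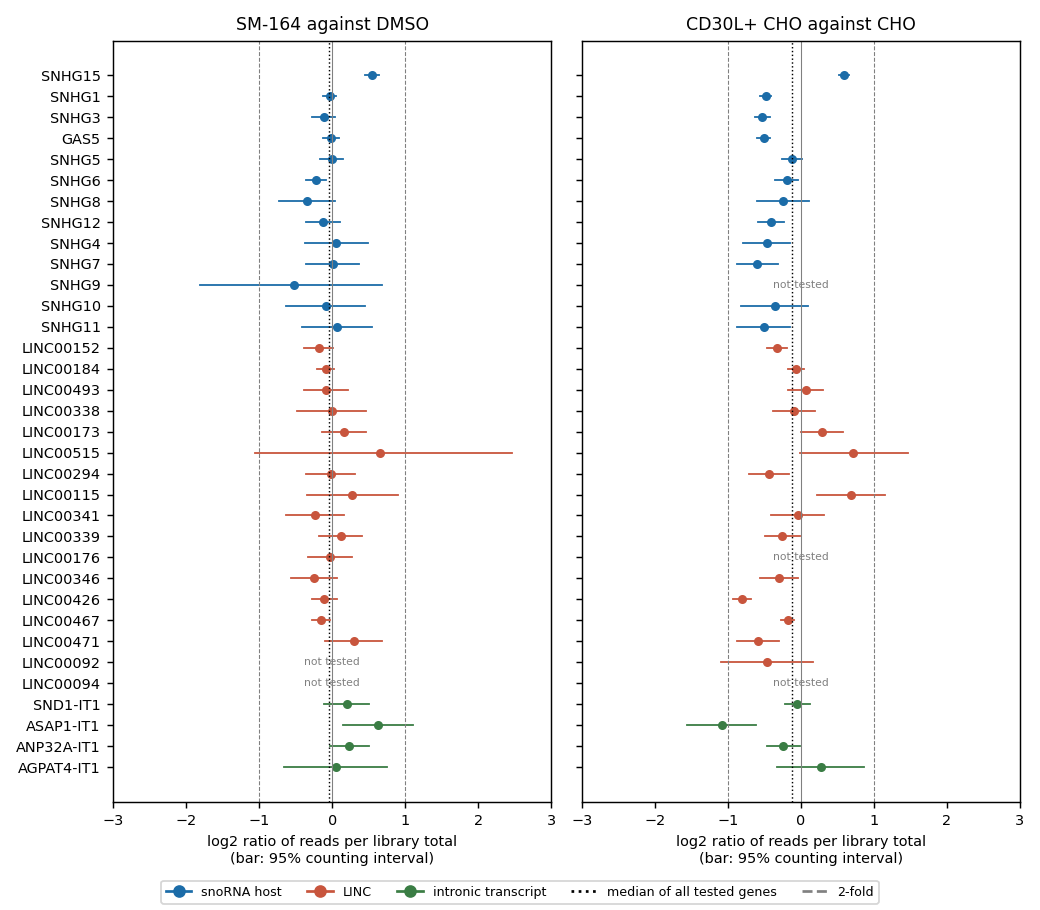
Log2 ratio of reads per library total for each gene (rows), for SM-164 against DMSO on the left and CD30L+ CHO against CHO on the right, with bars for the exact 95% counting interval, a dotted line at the median of all tested genes and dashed lines at 2-fold. On the right, SNHG15 stands at a ratio of 1.505, while the other tested snoRNA hosts lie below 0.

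SNHG15, the host of SNORA9, was the 1 member whose interval lay above 1 in both comparisons. The gene lies at chr7:45022627-45026259 on the minus strand in hg19, and its values combine exons and introns. It had 21.3 RPKM with SM-164, 14.6 with DMSO, 24.2 with CD30L+ CHO and 16.1 with CHO. Both treated libraries lay above both control libraries. The ratio was 1.45 with SM-164 against DMSO (interval 1.36 to 1.56) and 1.505 with CD30L+ CHO against CHO (1.43 to 1.58). Of all tested genes, 1% and 2.65% had a log2 ratio at or above its values of 0.53 and 0.58. Over the processing alternatives these log2 ratios ranged over 0.51 to 0.73 with SM-164 and 0.56 to 0.81 with CD30L+ CHO. SNHG15 gave 15.9% of all member reads with SM-164 against 11.1% with DMSO, and 19.4% with CD30L+ CHO against 11.2% with CHO. The control libraries of the experiments lay closer together, at a ratio of 1.10 for CHO against DMSO (1.03 to 1.17). The reads on SNORA9 inside it were too few to place: their ratio was 0.881 with SM-164 (0.539 to 1.42) and 1.25 with CD30L+ CHO (0.894 to 1.76).

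The other snoRNA hosts differed from SNHG15 in direction on CD30L+ CHO cells. Of the 12 hosts tested, 11 had a log2 ratio below 0, between -0.12 and -0.52, and SNHG15 alone lay above 0; over all tested genes 72% lay below 0. Under TMM scaling SNHG5 and SNHG6 moved above 0, to 0.09 and 0.02, and with the length trend subtracted SNHG5, SNHG6 and SNHG8 did. The median of the 12 was -0.38, or -0.18 under TMM scaling and -0.14 with the length trend subtracted. With SM-164 the median of the 13 hosts was -0.04, as over all genes, and it was 0.18 with the length trend subtracted.

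SNHG1, which hosts 8 listed snoRNAs of the box C/D class (SNORD22 and SNORD25 to SNORD31), lies at chr11:62619460-62623360 on the minus strand in hg19. It had 19.3 RPKM with SM-164 and 19.8 with DMSO, and 17.3 with CD30L+ CHO and 24.2 with CHO. The first pair gave a ratio of 0.974 (0.912 to 1.04), and the other gave 0.717 (0.681 to 0.754), the narrowest interval among the hosts that were lower. GAS5 (chr1:173833039-173837125, minus strand, hg19), known for rising in growth-arrested cells and as a decoy of the glucocorticoid receptor, holds 10 listed snoRNAs. It had 13.4 RPKM with SM-164 and 13.6 with DMSO, and 11.4 with CD30L+ CHO and 16.3 with CHO. Its ratio was 0.989 with SM-164 (0.915 to 1.07) and 0.702 with CD30L+ CHO (0.661 to 0.746). Both genes were thus level with SM-164 within counting error and lower on CD30L+ CHO cells.

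SNHG3 (chr1:28832732-28837404, plus strand, hg19), a host of SNORA73 genes, was counted over 2095 of its listed length of 4950 bases. It had 11.2 RPKM with SM-164, 12.2 with DMSO, 13.2 with CD30L+ CHO and 19.1 with CHO. Its ratio of 0.694 on CD30L+ CHO cells (0.645 to 0.746) came beside 1.57 for CHO against DMSO, so the CHO library was the high one of the 4. RCC1, a listed gene that adjoins SNHG3 on the same strand, had 0.687 (0.643 to 0.733) and 1.84 (1.70 to 2.00) in the same comparisons. RCC1 was thus also highest in the CHO library. Whether reads run on between these genes was not tested. SNHG12, which holds 4 listed snoRNAs, had 3.66 RPKM with SM-164, 4.01 with DMSO, 3.40 with CD30L+ CHO and 4.53 with CHO. SNHG4, counted over 945 of its 9433 listed bases, had 3.51 RPKM with SM-164, 3.39 with DMSO, 3.24 with CD30L+ CHO and 4.47 with CHO. SNHG7 had 1.40 RPKM with SM-164 and with DMSO, 1.15 with CD30L+ CHO and 1.74 with CHO. Each of these 3 was highest in the CHO library, and their ratios on CD30L+ CHO cells were 0.751, 0.722 and 0.662. SNHG11 and SNHG10 were low, at no more than 0.865 and 1.31 RPKM. Their CD30L+ CHO ratios were 0.703 (0.547 to 0.902) and 0.783 (0.568 to 1.07).

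SNHG5, the host of SNORD50A and SNORD50B, had 14.6 RPKM with SM-164, 14.7 with DMSO, 11.4 with CD30L+ CHO and 12.4 with CHO. Its interval held 1 in both comparisons, at ratios of 0.996 and 0.918. SNHG8, the host of SNORA24, had 3.90 RPKM with SM-164, 4.95 with DMSO, 2.82 with CD30L+ CHO and 3.32 with CHO. SNHG6, the host of SNORD87, had 8.05 RPKM with SM-164, 9.36 with DMSO, 3.67 with CD30L+ CHO and 4.20 with CHO. SNHG6 and SNHG8 were lowest in the 2 co-culture libraries. The SNHG6 ratios were 0.859 with SM-164 (0.781 to 0.945) and 0.873 on CD30L+ CHO cells (0.781 to 0.976), while those of SNHG8, 0.786 (0.600 to 1.03) and 0.844 (0.656 to 1.09), had intervals that held 1. SNHG9, the shortest host with 382 counted bases, had an estimated 10.4 reads with SM-164, 17 with DMSO, 0 with CD30L+ CHO and 4.73 with CHO. It was tested only with SM-164, where its ratio of 0.696 had an interval of 0.285 to 1.61.

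The snoRNA genes inside the hosts were counted apart from them. In 9 hosts, 30 snoRNA genes were listed, and in all 9 the bases missing from the host's count equalled the bases of these genes. The 10 snoRNA genes in GAS5 had together 245 reads with SM-164 and 253 with DMSO, and 306 with CD30L+ CHO and 496 with CHO. Their summed ratio was 1.15 with SM-164 (0.958 to 1.37) and 0.622 on CD30L+ CHO cells (0.537 to 0.718). The 8 in SNHG1 gave 0.994 with SM-164 (0.851 to 1.16) and 0.729 on CD30L+ CHO cells (0.644 to 0.824). The 4 in SNHG12 gave 1.02 on CD30L+ CHO cells (0.741 to 1.40), where the rest of SNHG12 gave 0.751 (0.663 to 0.852). The snoRNA stretches were thus lower on CD30L+ CHO cells with the rest of the gene in GAS5 and SNHG1. In SNHG12 their interval held both 1 and the ratio of the rest of the gene, so the reads were too few to place them. At the other 6 hosts the snoRNA intervals held 1. Reads from the finished snoRNA and from the host intron cannot be told apart.

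The protein-coding snoRNA hosts, from a list of 42 genes with many ribosomal protein and translation factor genes, gave another picture. All 42 were tested in both comparisons. Their median log2 ratio was -0.36 with SM-164, where the noncoding hosts were at -0.04. On CD30L+ CHO cells it was -0.22, where the noncoding hosts were at -0.38. With SM-164, 0 of the 42 were 2-fold lower (background 0.0634%) and 2 were 1.5-fold lower (background 1.12%). On CD30L+ CHO cells, 1 was 2-fold lower (background 0.731%) and 6 were 1.5-fold lower (background 4.99%). For CHO against DMSO their median was -0.67, and 12 of 42 were 2-fold lower (background 4.53%), while the 13 noncoding hosts had a median of 0.16. The difference between the lists was not tested.

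**Figure D3:**
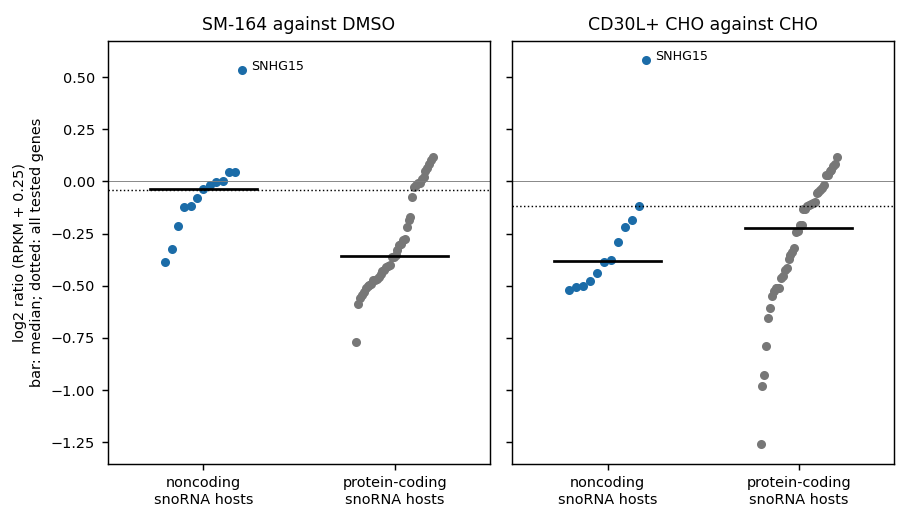
Log2 ratios of the noncoding snoRNA hosts and of the 42 protein-coding snoRNA hosts, 1 point per gene, in each comparison. The medians are -0.04 and -0.36 for SM-164 against DMSO, and -0.38 and -0.22 for CD30L+ CHO against CHO.

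At 4 hosts a protein-coding gene starts within 1000 bases on the opposite strand. SLC3A2, the heavy chain of the amino acid transporter CD98, starts 123 bases from SNHG1. It had 2.52 RPKM with SM-164 and 2.58 with DMSO, and 1.82 with CD30L+ CHO and 2.41 with CHO. Its ratio on CD30L+ CHO cells was 0.756 (0.720 to 0.795), beside 0.717 for SNHG1, and with SM-164 it was 0.976, beside 0.974. ZBTB37, a zinc finger gene, starts 367 bases from GAS5, and its ratio on CD30L+ CHO cells was 0.713 (0.640 to 0.793), beside 0.702 for GAS5. GLRX5, a mitochondrial glutaredoxin of iron-sulfur cluster assembly, starts 113 bases from SNHG10, and its ratio was 0.766 (0.685 to 0.855), beside 0.783 for SNHG10 (0.568 to 1.07), whose interval held 1. With SM-164 the intervals of both genes held 1 at each of these 3 pairs: ZBTB37 had a ratio of 1.04 and GLRX5 of 1.10, beside 0.989 for GAS5 and 0.940 for SNHG10. For CHO against DMSO, the pairs did not all lie on the same side of 1. SLC3A2 had a ratio of 0.934 (0.888 to 0.982) beside 1.22 for SNHG1 (1.16 to 1.29), GLRX5 had 1.33 (1.17 to 1.51) beside 0.935 for SNHG10 (0.677 to 1.30), and ZBTB37 had 1.19 beside 1.20 for GAS5. RPS2, a ribosomal protein gene that starts 169 bases from SNHG9, had 55.0 RPKM with SM-164 and 94.1 with DMSO, and 14.0 with CD30L+ CHO and 26.7 with CHO. It followed the order of SNHG9, which was also highest with DMSO and lowest with CD30L+ CHO but had no more than 17 estimated reads in a library. NDUFB10, which ends 3020 bases upstream of SNHG9 on the same strand, had the same order. Its levels were 4.23 RPKM with SM-164, 6.39 with DMSO, 0.911 with CD30L+ CHO and 1.86 with CHO.

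Among the LINC genes, LINC00152, a transcript known to be raised in many tumours, was the most abundant per length, with 14.8 RPKM with SM-164, 16.8 with DMSO, 17.8 with CD30L+ CHO and 22.3 with CHO. Only 952 of its 66057 bases were counted, and a near-identical copy exists, so its values are uncertain. Its ratio was 0.879 with SM-164 (0.766 to 1.01) and 0.798 on CD30L+ CHO cells (0.725 to 0.878). LINC00184 had 7.40 RPKM with SM-164, 7.89 with DMSO, 5.14 with CD30L+ CHO and 5.36 with CHO, so it set the experiments apart more than the treatments. LINC00467 spans 49781 bases and had 0.679 RPKM with SM-164, 0.756 with DMSO, 0.846 with CD30L+ CHO and 0.959 with CHO. Its ratios of 0.899 (0.823 to 0.982) and 0.882 (0.829 to 0.938) were small differences, and that on CD30L+ CHO cells changed sign under TMM scaling, to a log2 ratio of 0.06.

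LINC00426 (chr13:30914407-30948036, minus strand, hg19) was the LINC gene that was furthest below its control on CD30L+ CHO cells. It had 0.573 RPKM with CD30L+ CHO and 1.00 with CHO, a ratio of 0.572 (0.526 to 0.622), and 0.559 with SM-164 and 0.604 with DMSO. The CHO library alone was high, at 1.66 times DMSO (1.51 to 1.82). LINC00471 had 0.635 RPKM with CD30L+ CHO and 0.950 with CHO, a ratio of 0.668 (0.547 to 0.813), and 0.749 with SM-164 and 0.609 with DMSO. LINC00294 had 1.28 RPKM with CD30L+ CHO and 1.73 with CHO, and its ratio was 0.738 (0.610 to 0.893).

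LINC00346 had 0.905 RPKM with SM-164, 1.08 with DMSO, 0.807 with CD30L+ CHO and 0.993 with CHO, with ratios of 0.841 (0.678 to 1.04) and 0.812 (0.680 to 0.968). On the opposite strand of LINC00346 the levels were 1.12 RPKM with SM-164, 1.16 with DMSO, 0.548 with CD30L+ CHO and 0.865 with CHO, so both strands were lowest with CD30L+ CHO. LINC00339 had 1.17 RPKM with SM-164, 1.09 with DMSO, 0.968 with CD30L+ CHO and 1.16 with CHO, and only its ratio of 0.837 on CD30L+ CHO cells (0.709 to 0.988) had an interval that excluded 1. LINC00341 had 1.25 RPKM with SM-164 and 1.46 with DMSO, and its intervals held 1 in both comparisons. LINC00338, counted over 1639 of its 6344 listed bases, had 1.70 RPKM with SM-164 and with DMSO, 2.60 with CD30L+ CHO and 2.76 with CHO. It thus set the experiments apart, as LINC00184 did, but with the co-culture libraries on the high side. LINC00092 and LINC00094 stayed at or under 0.581 RPKM, and LINC00092 was tested only on CD30L+ CHO cells and LINC00094 in neither treatment comparison.

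The LINC genes with a log2 ratio above 0 in both comparisons were LINC00115, LINC00173 and LINC00515, at no more than 2.21 RPKM. LINC00115 (chr1:761586-762902, minus strand, hg19) had 1.34 RPKM with SM-164, 1.10 with DMSO, 1.70 with CD30L+ CHO and 1.06 with CHO. Its ratio was 1.21 with SM-164 (0.785 to 1.87) and 1.61 on CD30L+ CHO cells (1.16 to 2.23). LINC00173 had 2.21 RPKM with SM-164, 1.97 with DMSO, 1.60 with CD30L+ CHO and 1.32 with CHO, and its intervals held 1. LINC00515 (chr21:26955087-26955536, minus strand, hg19) had 0.678 RPKM with SM-164, 0.460 with DMSO, 2.17 with CD30L+ CHO and 1.32 with CHO. These rest on 8, 6.42, 44.4 and 27.2 estimated reads over 450 bases, and the ratio on CD30L+ CHO cells was 1.64 (0.995 to 2.76). LINC00515 lies 2431 bases past the end of MRPL39, a mitochondrial ribosomal protein gene on the same strand. MRPL39 was also higher, with ratios of 1.23 with SM-164 (1.11 to 1.37) and 1.41 on CD30L+ CHO cells (1.33 to 1.496). Reads that run on from MRPL39 cannot be told apart from LINC00515 in these values. Of the 34 genes, 9 lie within 10000 bases past the end of a gene on the same strand.

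The 4 intronic transcripts lie inside their host genes on the same strand, and in all 16 gene and library pairs their RPKM was 0.726 to 1.53 times that of the host. The level was thus close to that of the surrounding gene, and their reads cannot be told apart from reads of the host's introns. SND1-IT1 had 2.64 RPKM with SM-164, 2.31 with DMSO, 4.70 with CD30L+ CHO and 4.86 with CHO. Its host SND1, a nuclease-domain protein of RNA regulation, had 2.72, 2.60, 4.03 and 4.48 RPKM in the same libraries, in the same order. ASAP1-IT1 (chr8:131307601-131308779, minus strand, hg19) departed most from its host ASAP1, a GTPase-activating protein for Arf proteins. It had 2.77 RPKM with SM-164 and 1.81 with DMSO, and 1.06 with CD30L+ CHO and 2.23 with CHO. Its ratio was 1.54 with SM-164 (1.11 to 2.16), where that of ASAP1 was 1.02, and 0.475 on CD30L+ CHO cells (0.340 to 0.656), where that of ASAP1 was 0.786 (0.772 to 0.801). It rests on 85.6 estimated reads with SM-164, 66.3 with DMSO, 57 with CD30L+ CHO and 121 with CHO. ANP32A-IT1 and AGPAT4-IT1 had ratios of 1.17 and 1.03 with SM-164 and 0.847 and 1.20 on CD30L+ CHO cells.

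**Figure D4:**
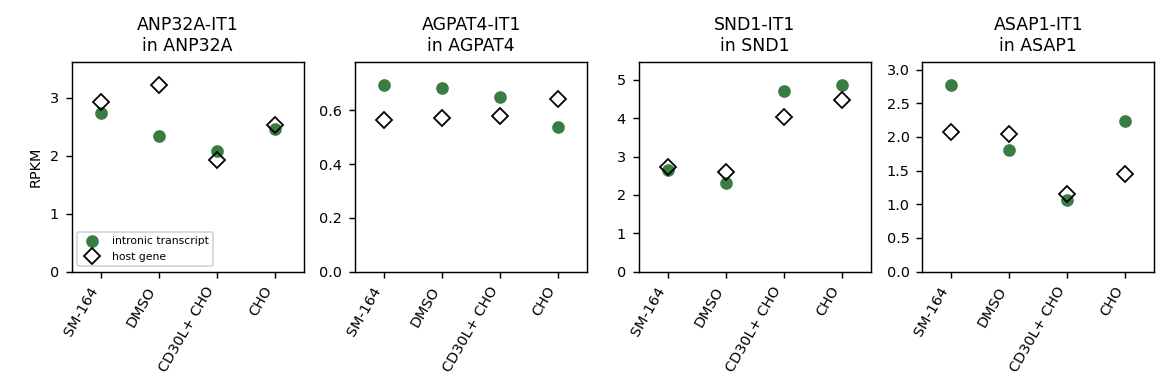
RPKM of the 4 intronic transcripts and of their host genes in each library. Transcript and host lie close together, and the highest ratio of transcript to host is that of ASAP1-IT1 in CHO, at 2.23 RPKM, 1.53 times the host.

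Of the 30 genes tested in both comparisons, 5 lay above 0 in both (background 16.5% of 7210 genes): SNHG15, LINC00115, LINC00173, LINC00515 and AGPAT4-IT1. Below 0 in both were 16 genes (background 50.6%), among them SNHG1, SNHG3, GAS5 and LINC00426. Above 0 with SM-164 only were 8 (background 21.5%), with ASAP1-IT1 as the widest split, and LINC00493 lay above 0 with CD30L+ CHO only (background 11.4%). The first 3 of these counts are near the share over all genes. TMM scaling changed the sign of 6 members with SM-164 (GAS5, LINC00176, LINC00294, LINC00338, SNHG1 and SNHG5) and of 7 with CD30L+ CHO, so these counts hold on the authors' scale only.

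**Figure D5:**
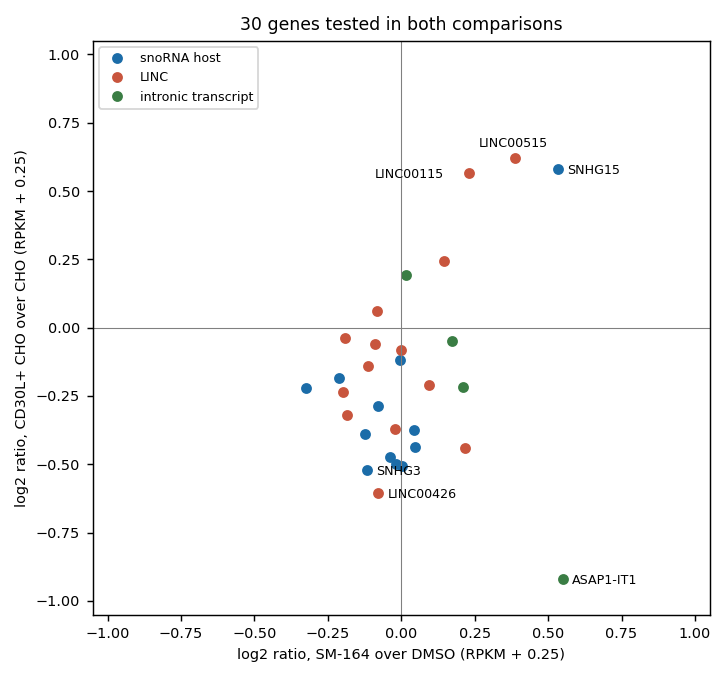
Log2 ratio with SM-164 over DMSO (horizontal) and with CD30L+ CHO over CHO (vertical), 1 point for each of the 30 genes tested in both, coloured by kind of gene. SNHG15 stands at 0.53 and 0.58, and ASAP1-IT1 at 0.55 and -0.92.

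For scale, a list of 15 genes was set beside the members: NF-kB subunits and targets, and other transcription factor genes (FOS, JUNB, EGR1, MYB, BATF). With SM-164, 5 of the 13 tested were 2-fold or more higher (background 0.19%), with a median log2 ratio of 0.83. On CD30L+ CHO cells 9 of 14 were 2-fold or more higher (background 0.979%), with a median of 1.39. There, 1 (JUNB) was 2-fold lower (background 0.731%). Of 27 named noncoding genes outside the symbol rule, 24 were listed and 15 were tested in each comparison, and 0 were 2-fold higher or lower. The background was 0.19% higher and 0.0634% lower with SM-164, and 0.979% and 0.731% on CD30L+ CHO cells, so 0 of 15 is near it. The medians of these noncoding genes were -0.16 with SM-164 and -0.06 on CD30L+ CHO cells.

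CHO against DMSO shows how far apart the control libraries of the experiments lie, where experiment and co-culture cannot be told apart. Of 33 tested members, 1 was 2-fold higher with CHO (LINC00515, background 0.879%) and 3 were 2-fold lower (SNHG9, LINC00176 and SNHG6, background 4.53%). LINC00176 had 0.435 RPKM with CHO and 1.16 with DMSO, and SNHG6 had 4.20 with CHO and 9.36 with DMSO. On the log2 scale these members differed more between the control libraries than any tested member did between a treated library and its control.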

How the data were processed

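The submitters' processing notes name genome build hg19 and the tools bedtools 2.16.2, TopHat 1.4.1, Bowtie 0.12.8 and CASAVA 1.8.2; which annotation was counted was not stated there. The authors deposited for each feature an estimated count over exons and introns, the signal per base, and the RPKM, scaled by 1 total per library (26217590 to 45885631 reads, recovered from signal and RPKM). Members, gene lists and settings were chosen with earlier results of these data known.

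Sense features were used; a repeated symbol kept its entry with most counted bases (186 dropped, 22798 genes kept). The log2 ratio used RPKM + 0.25 over genes with at least 300 counted bases and a mean of at least 0.5 RPKM, called at 2-fold. Folds used estimated counts rounded to whole reads, with exact conditional Clopper-Pearson 95% intervals. The procedure was tested on simulated data. Named genes were all SNHG genes, GAS5 and MIR155HG, the 10 members of highest RPKM, the 8 highest and 8 lowest log2 ratios per comparison, and genes beside the threshold; lists set beside them were taken whole. Genes named for their neighbours, promoter motifs or RefSeq class were chosen after their values were seen. Alternatives were pseudocounts of 0.1 and 1, no expression minimum or 1 RPKM, 1000 counted bases, a median set to 0, TMM scaling, subtraction of the running median over 301 genes ordered by length, a 1.5-fold threshold, and 2-fold with an interval that excludes 1; a minimum of 100 reads in both libraries was added after seeing the data. Tools were Python 3.11.15, pandas 2.3.3, numpy 2.4.6, scipy 1.17.1, matplotlib 3.10.9, R 4.3.3 and edgeR 4.0.16 (TMM factors only). Per the labels' protocols, strand-specific synthesis applied to certain samples; antisense reads were 3.31% to 3.57% of each library.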

Additional observations from a re-analysis of the deposited data

How the results depend on the processing

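No paired analysis was possible because each condition has 1 library. The counts of members at 2-fold or more were 0 in both directions and both comparisons under most alternatives. On CD30L+ CHO cells, the count of members that were lower became 1 with a pseudocount of 0.1 (ASAP1-IT1) and 1 with no expression minimum (SNHG9); at 1.5-fold, 1 was higher and 2 were lower. The members' median log2 ratio moved to 0.19 for SM-164 against DMSO with the length trend subtracted. For CD30L+ CHO against CHO it moved to -0.015 under TMM scaling and -0.011 with the length trend subtracted. The cause was not tested. Changes of sign among single members were most frequent with the length trend subtracted, at 14 of 32 for SM-164 against DMSO and 9 of 31 for CD30L+ CHO against CHO. SNHG15 stayed above 0 under all alternatives that were run. Depth limits SNHG9, LINC00515, LINC00092 and AGPAT4-IT1, whose intervals are wide.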
